A study of Mus musculus with 5 samples.

Results

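The nuclear-encoded subunits of oxidative phosphorylation were followed across the cell types of aged mouse tibialis anterior, a muscle at the front of the lower leg. The genes were taken by symbol: Nduf genes of complex I, Sdha to Sdhd, Uqcr genes, Cox4 to Cox8 genes and Atp5 genes. Of the 55357 genes in the deposited matrices, 104 matched, 13 with pseudogene symbols and 6 with fewer than 50 UMIs over the 5 libraries were left out, and 85 remained. The member nearest to that minimum was Cox6c2 with 108 UMIs, and the nearest gene left out was Ndufs6b with 39. Pseudogene symbols were judged by the names in the matrices. The member Ndufb1 was therefore kept, although GENCODE vM21 names it Ndufb1-ps. The 85 genes comprise 37 of complex I, 4 of complex II, 8 of complex III, 17 of complex IV, 17 of complex V, and Ndufa4 with its paralog Ndufa4l2. Among them are 3 complex IV genes known as the isoforms of heart and skeletal muscle, Cox6a2, Cox7a1 and Cox8b, which were compared with the other 82 subunits.

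All animals were female C57BL/6 mice aged 26 months. The 2 mice called frail here had a frailty index of 0.18 or more and formed the case group, and the 3 controls scored below 0.18. Each mouse gave 1 library made with the 10x Genomics 3′ chemistry, which counts unique molecular identifiers (UMIs), 1 per captured transcript end, so no term for transcript length applies. The labels are at odds on the input, since the text for the series speaks of cells released with enzymes while the protocol of the samples speaks of nuclei sorted after lysis. The mice were separate animals by the series text.

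The respiratory chain passes electrons from NADH and succinate through complexes I to IV to oxygen, and complex V uses the resulting proton gradient to make ATP. Most subunits are encoded in the nucleus and imported, while a few core subunits of complexes I, III, IV and V are encoded by mitochondrial DNA. Several complex IV subunits exist as pairs of genes. In heart and skeletal muscle Cox6a2, Cox7a1 and Cox8b are known to stand in for the widely expressed Cox6a1, Cox7a2 and Cox8a. Cox4i2 and Ndufa4l2 are known as paralogs of Cox4i1 and Ndufa4 that respond to low oxygen, and Cox6b2 as a paralog of Cox6b1 found in testis.

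The promoters of the isoforms and their partners are shown for comparison, for the 5 of these 6 genes with a RefSeq promoter in the table used; Cox6a2 has none there. Each line gives the 250 bases before the RefSeq start site on GRCm38.p6, 5′ to 3′ on the gene's strand, with capitals marking any match to 5 motifs searched on both strands: the NRF1 motif; CCGGAAG, bound by ETS factors such as GABP; AAGATGGC, bound by YY1; CAGCTG, an E-box; and TATAAA. The muscle isoforms are Cox7a1 (chr7:30183921-30184170, plus strand) and Cox8b (chr7:140900447-140900696, minus strand). Their partners are Cox7a2 (chr9:79759854-79760103, minus), Cox8a (chr19:7217617-7217866, minus) and Cox6a1 (chr5:115348959-115349208, minus).
Cox7a1: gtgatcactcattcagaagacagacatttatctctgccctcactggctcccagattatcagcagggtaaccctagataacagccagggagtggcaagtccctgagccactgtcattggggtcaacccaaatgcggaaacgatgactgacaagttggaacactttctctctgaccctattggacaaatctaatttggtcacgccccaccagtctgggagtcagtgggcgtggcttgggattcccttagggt
Cox8b: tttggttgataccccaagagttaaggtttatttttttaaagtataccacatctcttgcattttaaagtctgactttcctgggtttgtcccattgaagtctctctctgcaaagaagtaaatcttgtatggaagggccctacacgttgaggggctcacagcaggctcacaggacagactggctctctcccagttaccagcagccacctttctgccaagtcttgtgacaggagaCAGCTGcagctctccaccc
Cox7a2: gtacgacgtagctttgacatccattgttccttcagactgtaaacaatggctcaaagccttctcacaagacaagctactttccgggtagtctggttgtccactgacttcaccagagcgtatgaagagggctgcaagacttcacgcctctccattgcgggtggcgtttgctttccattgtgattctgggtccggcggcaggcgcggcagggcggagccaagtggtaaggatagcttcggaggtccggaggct
Cox8a: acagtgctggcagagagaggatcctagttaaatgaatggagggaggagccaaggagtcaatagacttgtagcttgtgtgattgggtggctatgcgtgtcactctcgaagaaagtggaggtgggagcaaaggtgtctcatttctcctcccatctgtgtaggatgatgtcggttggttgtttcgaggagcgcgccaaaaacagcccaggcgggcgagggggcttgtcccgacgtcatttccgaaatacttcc
Cox6a1: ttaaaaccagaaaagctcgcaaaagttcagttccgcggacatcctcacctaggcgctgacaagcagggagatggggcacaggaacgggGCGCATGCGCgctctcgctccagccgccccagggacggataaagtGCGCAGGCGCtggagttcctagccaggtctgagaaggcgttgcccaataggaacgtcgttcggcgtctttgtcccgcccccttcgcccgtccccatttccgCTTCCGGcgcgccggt
In the 2 pairs with both promoters in the table, the muscle isoform holds fewer CpG dinucleotides than its partner. Over the whole promoter window of 250 bases before to 50 after the start, Cox8b has 2 CpG and Cox7a1 has 7, against 19 in Cox8a and 20 in Cox7a2. Cox6a1 has 32. The median was 19 over the 68 subunit genes with a promoter in the table and 7 over all 27025 genes in it. The NRF1 motif was found in 25% of the subunit genes and 5.19% of all genes, CCGGAAG in 25% and 9.93%, and AAGATGGC in 14.7% and 3.19%. CAGCTG, which reads the same on both strands, was found in 8.82% of the subunit genes and 18.3% of all genes, and TATAAA in 10.3% and 15.7%. Over that window Cox8b is 1 of the 6 subunit genes with CAGCTG and 1 of the 7 with TATAAA, Cox6a1 is 1 of the 17 with the NRF1 motif, and Cox6a1 and Cox8a are among the 17 with CCGGAAG. The TATAAA of Cox8b and the CCGGAAG of Cox8a do not lie wholly within the bases printed. These matches describe letters in a window and not bound sites. In GENCODE vM21 on GRCm38 the muscle isoform genes all lie on chromosome 7: Cox6a2 at 128205435 to 128206387, Cox7a1 at 30184144 to 30186078 and Cox8b at 140898945 to 140900446.

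The 5 libraries held 68170531 to 90942121 UMIs in 9791 to 13303 barcodes, of which 48079 of 56922 were retained after filters on detected genes, mitochondrial UMIs and doublets. Barcodes were assigned to lineages by gate genes: Cdh5 (endothelial), Pdgfra (fibro-adipogenic), Rgs5 (mural), C1qa (macrophage), Pax7 (satellite), or Ckm plus Acta1 at 5% or more of UMIs (myofibre). Barcodes with gate genes of several of the first 5 lineages, 33.4% to 47.9% of the retained barcodes of a library, were left out of the gates. Marker genes that took no part in the gating were highest in their own gate for 7 of 7 endothelial, fibro-adipogenic, mural and macrophage markers each, 6 of 7 satellite markers and 9 of 9 myofibre markers. The mural gate also held the highest levels of 3 of 3 tenocyte, 3 of 5 adipocyte and 2 of 3 Schwann markers. The same held for 2 of 3 lymphoid, 2 of 3 keratinocyte and 1 of 3 cardiac markers, so it is not a pure mural population. Control 3 stood apart in keratinocyte transcripts, with 1295 counts scaled to the same UMI total (CPM) summed over 3 markers against 11.6 to 15.4 CPM in the other libraries. The myofibre gate held 9 and 74 barcodes in frail 1 and 2, and 317, 781 and 250 in controls 1 to 3. Frail 1 was therefore left out of the fits on that gate, which needed 10 barcodes. Between any pair of libraries 27 to 49 barcode sequences were shared.

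In the myofibre gate the 3 muscle isoforms were among the most abundant of the subunits. Cox6a2, the heart and muscle form of subunit VIa, was at 3047 and 3433 CPM in frail 1 and 2 and at 4455, 4229 and 4994 CPM in controls 1 to 3. Its median of 4229 CPM was the highest of the 85 subunits, followed by Atp5e (3708 CPM), the epsilon subunit of the ATP synthase stalk, and Atp5g1 (3234 CPM), which encodes the proton-carrying c subunit. Cox8b was at 1524 and 1723 CPM in the frail libraries and at 2339, 2203 and 2336 CPM in the controls. Cox7a1 was at 1219 and 1087 CPM in the frail libraries and at 1276, 1021 and 1188 CPM in the controls. Both frail libraries lay below every control for Cox6a2 and Cox8b, and the groups overlapped for Cox7a1. The share of all genes without overlap in this gate is not given here. Frail 1 rests on 16 to 40 UMIs for each of these 3 genes.

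The partner genes showed 3 different balances in the same barcodes. Cox6a2 made up 100% and 99.6% of the UMIs of Cox6a1 plus Cox6a2 in the frail libraries and 99.1%, 99.3% and 99.2% in the controls. Cox8b made up 87.0% and 87.0% of its pair in the frail libraries and 92.2%, 89.1% and 90.9% in the controls, with 95% Wilson intervals of 67.9% to 95.5% in frail 1 and 91.3% to 92.9% in control 1. Cox7a1 took 53.3% and 49.3% of its pair in the frail libraries and 50.6%, 47.9% and 50.8% in the controls. Cox6a1 was thus nearly missing from its pair, Cox8a was the minor form, and Cox7a2, at 1066 to 1246 CPM, held about the same share as Cox7a1. These intervals cover counting error only.

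**Figure D1:**
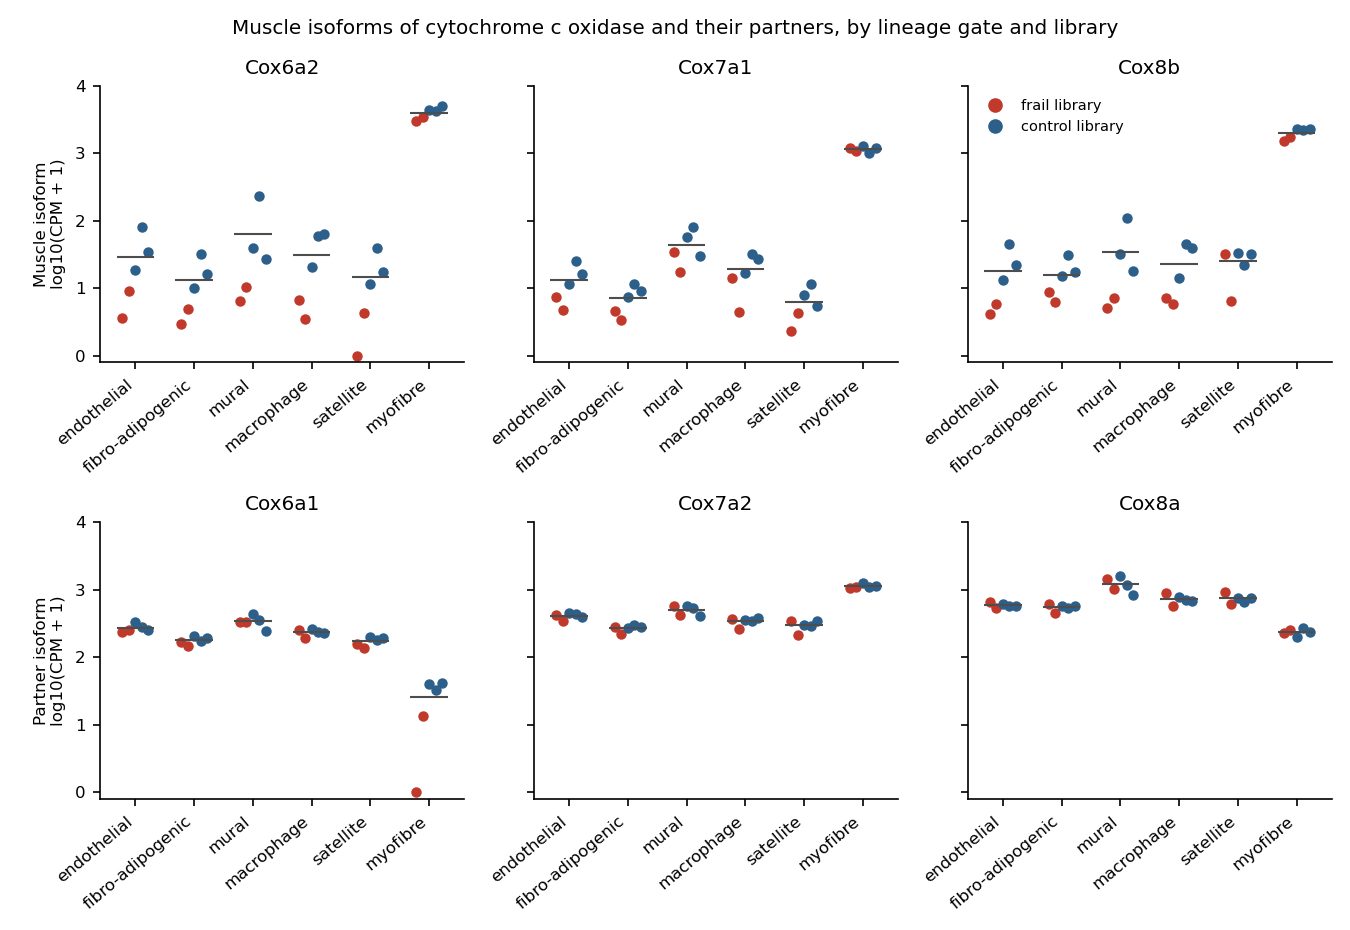
Level of each muscle isoform (top) and its partner (bottom) in the 6 gates, as log10 of CPM plus 1, with 1 point per library (red frail, blue control) and a line at the log of the mean CPM plus 1. The isoforms sit at 1021 to 4994 CPM in the myofibre gate and at no more than 229 CPM elsewhere, Cox6a1 drops in the myofibre gate, and Cox7a2 is at its highest there.

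Nearly the whole set was higher in the myofibre gate than in the other lineages. Of 84 subunits tested, 79 were higher and 5 lower than the mean of the other 5 gates (edgeR quasi-likelihood test with the mouse as a block, Benjamini-Hochberg adjusted p under 0.05). Among all 14546 genes tested, 27.3% were called higher and 39.7% lower. The median log2 change was 3.38 over the subunits and -0.60 over all genes. The other 82 subunits together took 7.58% to 8.64% of UMIs in the myofibre gate and 1.41% to 1.99% over all barcodes. Across alternative settings and left-out libraries 78 to 80 subunits were higher and 3 to 5 lower.

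Complex by complex, the medians were close to each other. Complex I had a median log2 change of 3.36. The core subunits Ndufs1, which holds iron-sulfur clusters, and Ndufv1, the NADH-binding flavoprotein, were higher by 2.64 (SE 0.12) and 2.92 (SE 0.10). Complex II, which also serves the citric acid cycle, had a median of 2.91, with Sdhb, its iron-sulfur subunit, at 3.69 (SE 0.10) and Sdha, its flavoprotein, at 2.13 (SE 0.10). All 8 complex III genes were higher with a median of 3.74, including the Rieske protein Uqcrfs1 at 3.89 (SE 0.09) and the core protein Uqcrc1 at 3.01 (SE 0.10). All 17 complex V genes were higher with a median of 3.64, among them the catalytic subunit Atp5b at 3.03 (SE 0.10).

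Complex IV had the widest spread, since it holds the tissue paralogs. Its median was 3.35. Cox6a2 was higher by a log2 change of 8.88 (SE 0.27), Cox8b by 7.90 (SE 0.28) and Cox7a1 by 7.72 (SE 0.17), with adjusted p of 4.4e-19, 1.3e-17 and 1.2e-25 in edgeR. The next were Cox5a at 4.71 (SE 0.09) and Cox7b at 4.34 (SE 0.08), which have no muscle isoform among the genes measured. Cox4i1 and Cox6b1, the common forms of their subunits, were higher by 2.65 (SE 0.08) and 3.26 (SE 0.09). Cox7a2l, a paralog of the Cox7a genes, was at 1.23 (SE 0.11), and at 0.10 and not called when libraries were scaled by total UMIs alone.

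The lower genes were all members of such pairs. Cox6a1 was lower by a log2 change of -1.58 (SE 0.16) and Cox8a by -0.45 (SE 0.13). Cox4i2 was lower by -1.67 (SE 0.69) and Ndufa4l2 by -1.82 (SE 0.50), while Ndufa4 was higher by 3.74 (SE 0.09). Against only those barcodes of the other gates that had no UMI of Ckm or Acta1, Cox8a was at -0.30 (adjusted p = 0.075) and Cox4i2 at -1.71 (adjusted p = 0.067) in edgeR, and neither was called. Cox6b2 had 0 UMIs among the 6253723 of the myofibre gate. At a floor of 3 counts over the gate it was at least 43.8-fold lower there than in the mural gate and at least 8.43-fold lower than in the endothelial gate. Scaling by total UMIs alone moved the median of all genes by -1.23, and by -0.31 with RLE factors. Under it Cox6a2 was at 7.87, Cox8b at 6.86, Cox7a1 at 6.65 and Cox8a at -1.57, with the directions kept. Symbols alone do not tell whether reads shared with near-identical pseudogene copies were counted to these genes, since the authors' handling of them is not given in the sources used here.

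**Figure D2:**
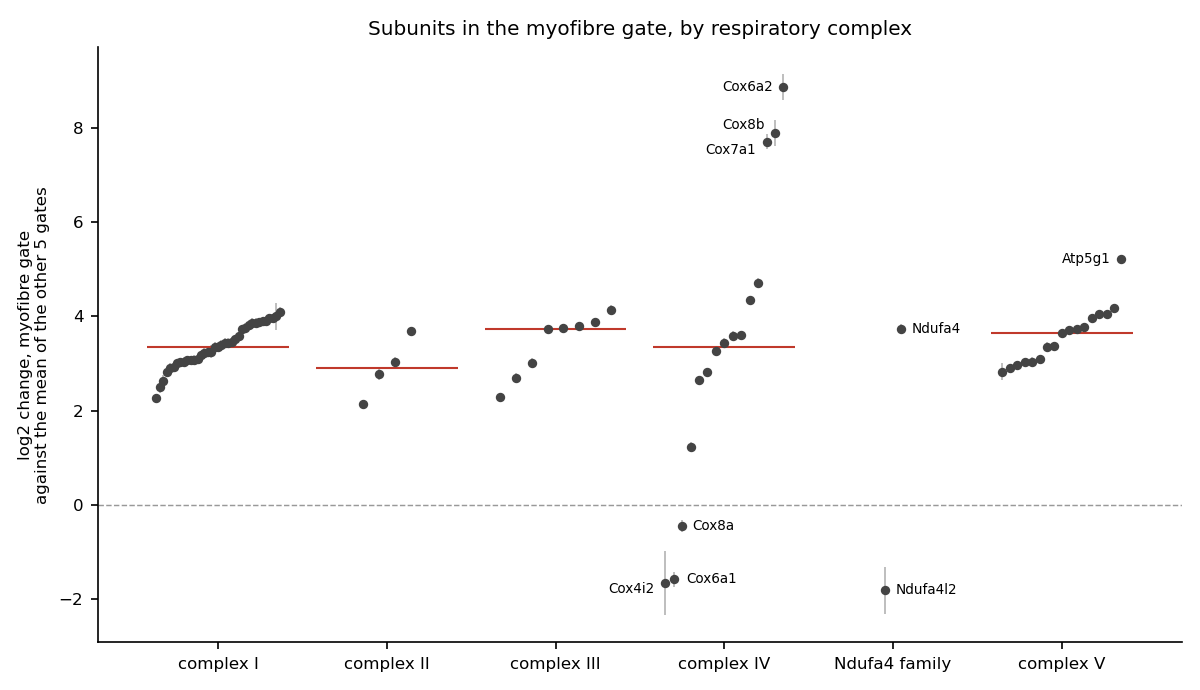
Log2 change of each subunit between the myofibre gate and the mean of the other 5 gates, grouped by complex, with standard errors as bars and red lines at the medians of the complexes. Cox6b2, with 0 UMIs in the gate, is not drawn; Cox6a2, Cox8b and Cox7a1 stand above the rest, and Cox8a, Cox6a1, Cox4i2 and Ndufa4l2 fall below 0.

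The 3 genes for the c subunit of the ATP synthase, which encode the same mature protein, also shifted in balance. Atp5g1 was higher in the myofibre gate by a log2 change of 5.21 (SE 0.09), Atp5g3 by 2.90 (SE 0.10) and Atp5g2 by 2.82 (SE 0.18). Atp5g1 took 81.0% to 83.4% of the UMIs of the 3 genes in the myofibre gate and 44.1% to 59.4% over all barcodes. The other genes of the pathway were also counted. Of 43 assembly factors tested, 42 were higher in the myofibre gate with a median log2 change of 2.09, and of 11 genes for electron carriers and ADP exchange 8 were higher and 3 lower. Of 14 regulators of mitochondrial biogenesis 9 were higher and 3 lower. Of the 13 subunits encoded by mitochondrial DNA 4 were higher and 0 lower, with a median of 0.24. Among all genes 27.3% were called higher and 39.7% lower. The limit on mitochondrial UMIs bounds the mitochondrial values: it removed 10.2% to 25% of myofibre and 1.44% to 3.15% of fibro-adipogenic barcodes. Scaling by total UMIs alone moved the median of all genes by -1.23 in this contrast, so the sign of that 0.24 depends on the scaling.

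The contrasts of the other 5 gates each have the myofibre gate in their reference: 75 subunits were called lower in the endothelial gate, 81 in the fibro-adipogenic, 77 in the macrophage, 70 in the satellite and 38 in the mural gate. Among all genes 26.5%, 26.9%, 22%, 24.3% and 17% were called lower in these gates. In the same order 2, 1, 3, 2 and 8 subunits were called higher, against 31.5%, 31%, 29.1%, 20.6% and 24% of all genes. The 5 gates were therefore also compared with one another, leaving the myofibre gate out, a comparison added after the data had been seen. In it 84 subunits and 14281 genes were tested.

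The mural gate then had the highest levels. Of the 84 subunits 74 were higher and 2 lower than the mean of the 4 other gates, against 24.3% and 17.2% of all genes, and the median log2 change was 0.53 against 0.03. Between 68 and 75 were higher across the alternatives and left-out libraries, and 2 lower in each. The 82 subunits other than the muscle isoforms took 2.57% and 2.08% of UMIs in this gate in the frail libraries and 2.84%, 2.66% and 1.92% in the controls. In the fibro-adipogenic gate they took 1.12% to 1.42%. Members of all complexes were higher, as with Ndufs1 at 0.67 (SE 0.09), Sdhb at 0.60 (SE 0.08), Uqcrc1 at 0.75 (SE 0.07), Cox5a at 0.49 (SE 0.08) and Atp5b at 0.93 (SE 0.08). Ndufc2 was lower by -0.39 (SE 0.08) and Cox7a2l by -0.40 (SE 0.07). The limit on mitochondrial UMIs removed 13.6% to 24.8% of mural and 1.44% to 3.15% of fibro-adipogenic barcodes, and the part of this filter in the result was not tested in this comparison. Tenocyte markers, summed over 3 genes, stood at 458 to 1935 CPM in the mural gate, the highest of the 6 gates, and their part in the result was not tested either.

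The low-oxygen paralogs were concentrated in the mural gate. Cox4i2 was at 327 and 496 CPM in frail 1 and 2 and at 506, 288 and 188 CPM in controls 1 to 3. In the endothelial gate it was at 13.1 to 23.1 CPM, in the macrophage gate at 14.2 to 61.3 CPM, and in the satellite gate at 0 to 7.63 CPM. Ndufa4l2 was at 780 and 1109 CPM in the frail libraries and at 1041, 639 and 640 CPM in the controls. Both genes overlapped between frail and control mice, and in each library the mural level was the highest of the 6 gates. Cox4i2 was higher in the mural gate by a log2 change of 4.71 (SE 0.26, adjusted p = 2.5e-11 in edgeR) and Ndufa4l2 by 4.46 (SE 0.26, adjusted p = 6.2e-11).

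Within their pairs the 2 paralogs differed in weight. Cox4i2 made up 28.2% and 40.9% of the UMIs of Cox4i1 plus Cox4i2 in the mural gate of the frail libraries, and 32.8%, 22.6% and 21.0% in the controls. Ndufa4l2 made up 68.9% and 83.8% of its pair in the frail libraries and 76.6%, 63.0% and 72.4% in the controls. It was thus the major form of its pair there in all 5 libraries, and Cox4i2 the minor form of its own. Ndufa4 itself was not called in the mural gate (-0.04, SE 0.09), and Cox4i1 was higher by 0.17 (SE 0.06). The call of Cox4i1 was lost without frail 1 (0.15) and without control 1 (0.15), 2 (0.12) or 3 (0.15). Cox6b2 was higher by 1.34 (SE 0.18), at 14.1 to 26.4 CPM, or 3.66% to 7.12% of its pair. In control 3, the library with the keratinocyte transcripts, Ndufa4l2 was also at 245 CPM in the macrophage gate and 73.3 CPM in the endothelial gate, against at most 69.7 and 24.7 CPM in the others.

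Of the muscle isoforms, Cox7a1 had the largest log2 change in the mural gate. It was at 33.8 and 16.5 CPM in the frail libraries and at 55.8, 79.4 and 28.7 CPM in the controls, against 2.38 to 10.5 CPM in the fibro-adipogenic gate. The log2 change over the 4 other gates was 2.18 (SE 0.16, adjusted p = 1.4e-10 in edgeR). Cox6a2 was higher by 1.23 (SE 0.26), and by 0.76 without control 2, which held 229 CPM against 5.53 to 38.9 CPM in the other libraries. The mural gate of control 2 also held 75.4 CPM summed over 5 adipocyte markers and 18.7 CPM over 3 cardiac markers. In the other libraries these sums were 0.79 to 2.76 CPM and 0 CPM, and their part in the result was not tested. Cox8b was not called, at 0.34 (SE 0.30, adjusted p = 0.40 in edgeR). Transcripts of myofibres also differed between the libraries: Ckm plus Acta1 stood at 52.5 and 66.4 CPM in the mural gate of the frail libraries and at 738, 1595 and 350 CPM in the controls. Cox7a1 did not keep their order, with frail 1 (33.8 CPM) above control 3 (28.7 CPM). Relative to 100 UMIs of Ckm plus Acta1, mural Cox7a1 was at 64.5, 24.9, 7.56, 4.98 and 8.20 UMIs in the order frail 1, frail 2 and controls 1 to 3, and in the myofibre gate at 1.12 to 1.79. Cox6a2 measured in the same way was at 5.27 to 14.4 in the mural and 3.52 to 6.03 in the myofibre gate. The ratio for Cox7a1 in the mural gate thus lay above that of the myofibre gate in each of the 5 libraries. This was not particular to the mural gate, since the same held in the other gates outside myofibre. The ratio was 1.91 to 20.5 in the endothelial gate and 1.74 to 18.1 in the fibro-adipogenic gate. In the macrophage and satellite gates it was 2.08 to 31.7 and 2.07 to 10.

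**Figure D3:**
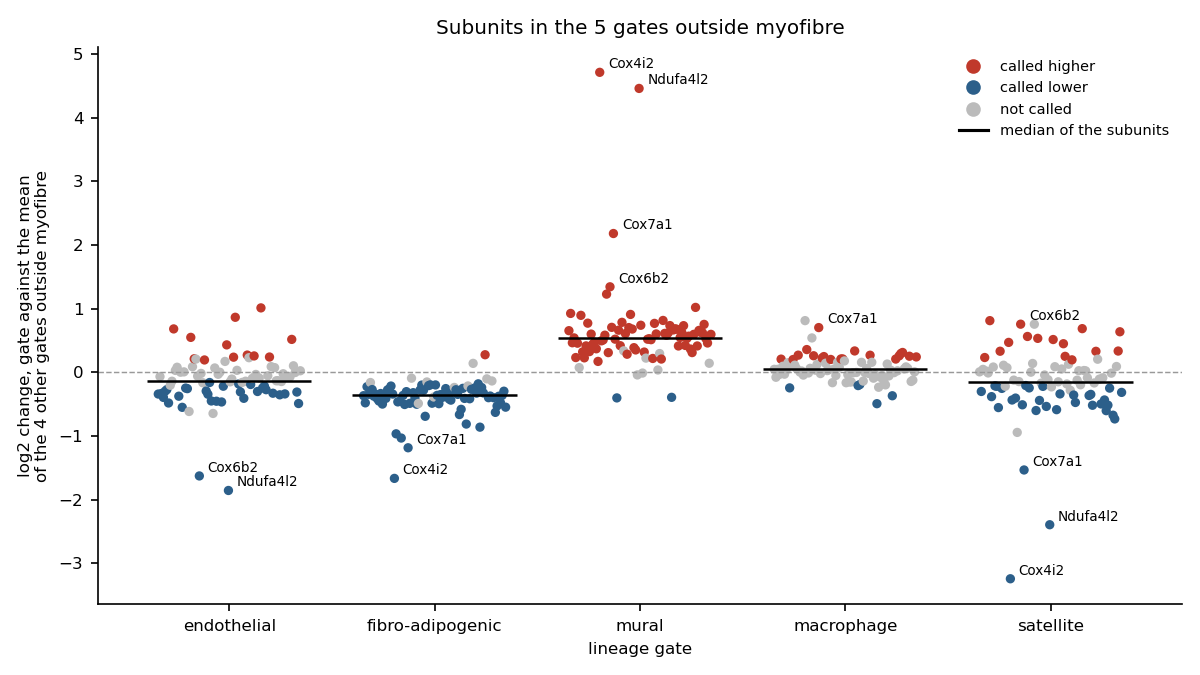
Log2 change of each subunit in 1 gate against the mean of the 4 other gates outside myofibre, coloured by the edgeR call at an adjusted p of 0.05, with black lines at the medians. The mural points lie mostly above 0 with Cox4i2 and Ndufa4l2 far up, and the fibro-adipogenic points lie mostly below 0.

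The fibro-adipogenic gate had the opposite profile, with 1 subunit higher and 73 lower against 27.9% and 26.4% of all genes, and a median log2 change of -0.36. The higher gene was Ndufv3 at 0.28, an accessory subunit of the NADH-binding module. Cox4i2 was lower by -1.67 (SE 0.46), Cox7a1 by -1.19 (SE 0.21), Cox6a2 by -1.03 (SE 0.29), Cox5a by -0.97 (SE 0.09) and Ndufs8 by -0.86. Myofibre transcripts differed between the gates too, with Ckm plus Acta1 at 19.8 to 602 CPM here and 52.5 to 1595 CPM in the mural gate. All 13 subunits encoded by mitochondrial DNA were lower too, with a median of -0.51, while of 43 assembly factors 4 were higher and 3 lower. The limit on mitochondrial UMIs bounds the mitochondrial values in each gate compared.

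The endothelial, macrophage and satellite gates had calls in both directions. In the endothelial gate 12 were higher and 32 lower against 26.4% and 31% of all genes. Ndufc2 was higher by 1.01 (SE 0.07) and Ndufa8, a subunit of the complex I membrane arm, by 0.86 (SE 0.13), and Ndufa4l2 and Cox6b2 were lower by -1.86 (SE 0.34) and -1.63 (SE 0.22). In the satellite gate 15 were higher and 33 lower against 19.3% and 26.4%. Atp5g2 was higher by 0.81 (SE 0.22), a call lost without frail 1 (0.66), Ndufc2 by 0.69 (SE 0.08) and Cox7a2l by 0.56 (SE 0.07), and Cox4i2, Ndufa4l2 and Cox7a1 were lower by -3.24 (SE 0.73), -2.39 (SE 0.48) and -1.53 (SE 0.40). Satellite Cox7a1 rests on 1 to 4 UMIs per library, near the floor. Myofibre transcripts were also low in the satellite gate, with Ckm plus Acta1 at 13.2 to 514 CPM. In the macrophage gate 19 were higher and 5 lower against 25.9% and 23%, with Cox7a1 higher by 0.70 (SE 0.20), Cox5a by 0.36 (SE 0.08) and Ndufc2 lower by -0.49 (SE 0.08). Macrophage Cox7a1 rests on 7 to 80 UMIs per library, beside Ckm plus Acta1 at 41.7 to 1502 CPM. Ndufc2 thus ranged from 112 to 133 CPM in the fibro-adipogenic gate to 298 to 461 CPM in the endothelial gate, with no overlap between these gates.

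Frail and control mice were then compared, the contrast the study was designed for. Over all retained barcodes 0 of 85 subunits passed the threshold in edgeR, as did 0 of 19827 genes (0%); 5.58% of genes and 4 of the subunits had an unadjusted p under 0.05. The log2 change of frail over control was below 0 for 80 of the 85 subunits, against 49.6% of all genes, with a median of -0.23 against 0.00. Both frail libraries lay below every control for 27 subunits, against 10.1% of all genes, and above every control for 1, Atp5g2, against 9.87%. The median share of mitochondrial UMIs in retained barcodes was 4.17% and 4.09% in the frail libraries and 3.22%, 3.09% and 3.40% in the controls. Schwann cell markers, summed over 3 genes, were at 358 and 306 CPM against 125, 219 and 146 CPM. Both measures were above every control in both frail libraries, and their part in the result was not tested. In sums over barcodes of this kind fewer cells of a type and less RNA per cell cannot be told apart.

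The muscle isoforms had the smallest p of the 85. Cox6a2 was at 3.07 and 14.6 CPM in the frail libraries and at 143, 284 and 85.2 CPM in the controls. Cox8b was at 6.90 and 8.86 CPM against 80.6, 154 and 46.9 CPM, and Cox7a1 at 10.9 and 7.37 CPM against 50.6, 76.4 and 28.3 CPM. For all 3 genes both frail libraries lay below every control, with control 2 the highest. In edgeR the log2 change was -4.34 for Cox6a2 (SE 0.94, adjusted p = 0.54), -3.62 for Cox8b (SE 0.59, adjusted p = 0.41) and -2.53 for Cox7a1 (SE 0.50, adjusted p = 0.48). DESeq2 called these 3 genes lower, with adjusted p of 0.0010, 6.4e-11 and 8.1e-06. The share of all genes that DESeq2 called is not given here. Their partners overlapped between the groups: Cox6a1 was at 227 and 210 CPM against 266, 227 and 218, Cox8a at 805 and 551 CPM against 734, 624 and 628, and Cox7a2 at 394 and 295 CPM against 412, 412 and 340.

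The number of myofibre barcodes and their transcripts moved with these values. Ckm plus Acta1 stood at 43.0 and 333 CPM in the frail libraries and at 2635, 5698 and 1309 CPM in the controls. The 9 myofibre markers summed to 81.0 to 484 CPM in frail and 2284 to 8590 CPM in control libraries. Relative to 100 UMIs of Ckm plus Acta1, Cox6a2 was at 7.14 and 4.40 UMIs in the frail libraries and at 5.42, 4.99 and 6.51 in the controls, and the groups overlapped. Cox7a1 measured in that way was at 25.4 and 2.22 in the frail libraries and at 1.92, 1.34 and 2.16 in the controls, with frail 1 apart.

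Inside the myofibre gate the log2 changes of the isoforms were nearer to 0. With 1 frail library against 3 controls, and its spread taken to be like theirs, the log2 change was -0.37 for Cox6a2 (SE 0.29, adjusted p = 0.79 in edgeR), -0.37 for Cox8b (adjusted p = 0.79) and -0.06 for Cox7a1 (adjusted p = 0.99). Of 82 subunits tested there, 0 were called in edgeR (0.0405% of all genes) and 0 in DESeq2, 0 had an unadjusted p under 0.05 (6.57% of all genes), 38 were below 0 (60% of all genes) and the median was 0.02. With the myofibre gate left out of the sums, Cox6a2 was at 2.43 and 5.52 CPM in the frail libraries against 20.2, 64.9 and 26.8 in the controls, with a log2 change of -3.27 (adjusted p = 0.65 in edgeR). Atp5g1, at 190 and 136 CPM against 270, 313 and 216 over all barcodes, overlapped between the groups once that gate was left out, at 189 and 127 against 185, 182 and 183 CPM.

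**Figure D4:**
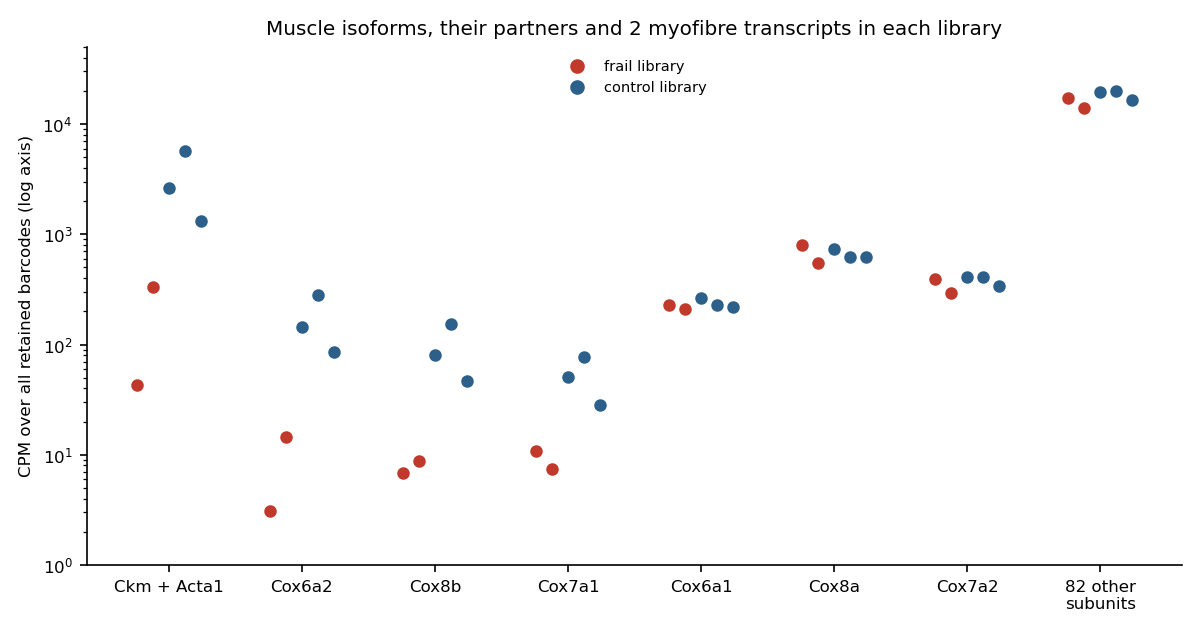
CPM over all retained barcodes on a log axis for Ckm plus Acta1, the 3 muscle isoforms, their 3 partners and the sum of the 82 other subunits, with 1 point per library (red frail, blue control). Both frail libraries lie below every control for Ckm plus Acta1 and the muscle isoforms, and the groups overlap for the partners and for the sum.

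In each of the other gates 0 subunits were called in edgeR between frail and control mice. The share of all genes called was 0% in the endothelial, mural and macrophage gates, 0.00665% in the fibro-adipogenic gate and 0.115% in the satellite gate. At an unadjusted p under 0.05 there were 3, 4, 2, 4 and 2 subunits in the endothelial, fibro-adipogenic, mural, macrophage and satellite gates, against 3.64%, 4.73%, 5.19%, 2.94% and 5.28% of all genes. DESeq2 called 1, 3, 1, 2 and 0 lower in the same order and 0 higher. The shares of all genes above are those of edgeR, and those of DESeq2 are not given here. The log2 change was below 0 for 69 of 84 subunits in the endothelial gate, 78 of 84 in the fibro-adipogenic, 62 of 84 in the mural, 68 of 83 in the macrophage and 57 of 81 in the satellite gate, against 49.5%, 49.7%, 49%, 51.1% and 50.3% of all genes. The medians lay between -0.18 and -0.07. Both frail libraries lay below every control for 21 subunits in the endothelial and 21 in the fibro-adipogenic gate, against 8.18% and 9.05% of all genes. This held for 3 subunits in the mural gate, 11 in the macrophage and 6 in the satellite gate, against 10.5%, 9.61% and 8.41%.

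The log2 changes of the muscle isoforms were below 0 in these gates wherever they were tested. Cox6a2 was at -3.03 (SE 0.84) in the endothelial, -2.71 (SE 0.63) in the fibro-adipogenic and -3.74 (SE 1.27) in the mural gate. In the macrophage gate it was at -3.57 (SE 0.68). Its change in the satellite gate was -3.43 (SE 0.91), on 0 to 15 UMIs per library. Cox6a2 was not called in edgeR in any of these fits. Cox8b had a log2 change of -2.68 (SE 0.61) in the endothelial gate, -3.37 (SE 0.96) in the mural gate and -1.64 (SE 0.39) in the fibro-adipogenic gate, none called in edgeR. In the satellite gate it was at -0.73 (SE 0.55) with the groups overlapping. Cox7a1 was at -1.08 (SE 0.52) in the mural gate, also with overlap, and was not tested in the satellite gate. Ckm plus Acta1 stood at 13.2 to 132.5 CPM in the frail libraries and 161 to 1595 CPM in the controls over these 5 gates. In barcodes with no UMI of either gene, Cox6a2 was called lower in the fibro-adipogenic gate, at -2.94 (adjusted p = 0.042 in edgeR). In that gate control 2 kept 80 barcodes with 360600 UMIs, and frail 1 kept 1735 with 13796066. The call rests on 15 and 21 Cox6a2 UMIs in frail 1 and 2 and on 24, 10 and 69 in controls 1 to 3. In the endothelial and mural gates the same selection gave -2.20 and -2.61, with adjusted p of 0.355 and 0.63 in edgeR. Other subunits with the smallest p included Atp5k and Atp5mpl, small membrane subunits of the ATP synthase. Atp5k was at -0.41 in the endothelial, -0.42 in the mural and -0.53 in the satellite gate, and Atp5mpl at -0.49 in the fibro-adipogenic gate. Cox7a2l was at -0.52 (SE 0.23) in the mural gate. In the macrophage gate Atp5g2 was at 1.03 (SE 0.39), with 20.2 and 21.0 CPM in the frail libraries above the 10.1, 5.50 and 14.6 CPM of the controls. Ndufa4l2 was at -2.81 (SE 0.97) in the satellite gate, where the groups overlapped. None of these was called.

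Fast fibres were last compared within the myofibre gate. Type IIb fibres, which carry the Myh4 myosin, are known as more glycolytic than IIx and IIa fibres, which carry Myh1 and Myh2. Barcodes with more Myh4 than Myh1 plus Myh2 UMIs were set against the reverse class in frail 2 and the 3 controls, with the mouse as a block. The log2 change of the Myh4 class was below 0 for all 80 subunits tested, against 44.5% of the 3448 genes tested, and the median was -0.30 against 0.05. In edgeR 3 subunits were lower and 0 higher, against 1.86% and 1.6% of all genes.

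The called genes came from complexes I, II and III. Ndufb3, an accessory subunit of complex I, was at 270, 394, 351 and 376 CPM in the Myh4 class of frail 2 and controls 1 to 3, and at 755, 704, 669 and 480 CPM in the other class. Its log2 change was -0.70 (SE 0.17, adjusted p = 0.011 in edgeR). Sdhb was at 601, 444, 362 and 538 CPM against 755, 969, 900 and 656 CPM, a change of -0.69 (SE 0.19, adjusted p = 0.036 in edgeR). Uqcrc2, a core protein of complex III, was at 322, 203, 227 and 275 CPM against 597, 385, 379 and 406 CPM, a change of -0.64 (SE 0.17, adjusted p = 0.030 in edgeR). The Myh4 class was lower in 4 of 4 libraries for each of these genes.

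The number of calls depended on the libraries used. Without control 1 or without control 2 there were 0 calls, without control 3 there were 2, and without frail 2 there were 19. With scaling by total UMIs alone 27 subunits were lower, and the median of all genes moved by -0.09. The shares of all genes called in these alternative fits are not given here. The muscle isoforms were not called: Cox7a1 was at -0.44 (adjusted p = 0.16), Cox8b at -0.35 (adjusted p = 0.35) and Cox6a2 at -0.33 (adjusted p = 0.46) in edgeR. Assembly factors were below 0 for 23 of 30 tested, and the 10 mitochondrially encoded subunits tested were all above 0 with a median of 0.37, none of them called. Among the other pathway genes Ppargc1a, a regulator of mitochondrial biogenesis, was called at -1.27 (SE 0.28, adjusted p = 0.0053 in edgeR). Coq10a, from the electron carrier list, was called at -0.80 (SE 0.18, adjusted p = 0.0049 in edgeR). The 82 subunits other than the muscle isoforms took 7.53%, 7.52%, 6.46% and 7.72% of UMIs in the Myh4 class of these libraries and 9.49%, 11.3%, 9.82% and 8.95% in the other class.

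**Figure D5:**
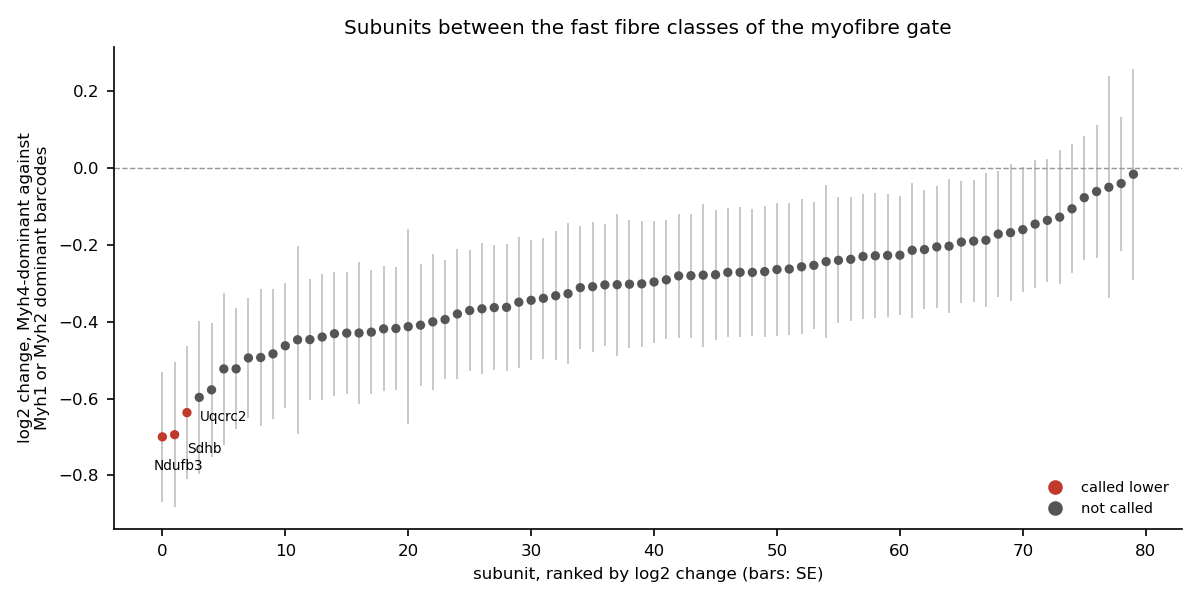
Log2 change of 80 subunits between barcodes dominated by Myh4 and those dominated by Myh1 or Myh2 in the myofibre gate, in order of size, with standard errors as bars. All points lie below 0, and the red points mark Ndufb3, Sdhb and Uqcrc2, the genes called lower in edgeR.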

How the data were processed

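Gene-by-barcode UMI counts were deposited by the authors as 1 filtered matrix per mouse, made with Cell Ranger 7.0.0 on GRCm38 per the submitters' processing notes, which also list bcl2fastq 5.01 and Seurat 4.1.2. Whether introns were counted is not given in the sources used here. Barcodes with fewer than 200 genes or over 10% mitochondrial UMIs were dropped, as were the top doublet scores of scrublet (scanpy 1.11.5) at 0.4% per 1000 barcodes. Total UMIs were 68170531 to 90942121 per library. Counts were summed per library and gate (at least 10 barcodes) and tested across all genes with edgeR 4.0.16 (R 4.3.3) quasi-likelihood fits, TMM factors and Benjamini-Hochberg adjustment at 0.05; SE is the log2 change over the root of F. Gate and fibre contrasts had the mouse as a block. CPM are counts over the UMI total of the sum. Named genes were taken from the muscle isoforms and their partners, other paralog sets, core subunits, and in each comparison the 5 with the largest rise and fall past the threshold or, where none passed, the 5 with the smallest p. The members, lists and tests were chosen with earlier results of these data known, and comparisons among the 5 gates outside myofibre and fits scaled by total UMIs alone were chosen after seeing the data. DESeq2 1.42.0, RLE factors, other filters and gates, and left-out libraries were alternatives. The tests were tested on simulated data. Replicate numbers were not taken to pair the mice. Deviations of same-numbered libraries correlated at -0.0555 and 0.147 over 19827 genes, but so few pairs cannot settle whether they share a batch.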

Additional observations from a re-analysis of the deposited data

Results flagged for a closer look

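Uqcrc1, a core protein of complex III, lay on opposite sides of the controls in the frail mice of 2 gates, and this difference was not tested. In the endothelial gate it was at 102 and 107 CPM in the frail libraries and at 98.7, 100.0 and 93.6 CPM in the controls, a log2 ratio of mean CPM of 0.0983. In the fibro-adipogenic gate it was at 73.5 and 67.0 CPM against 75.3, 74.7 and 78.1 CPM, a ratio of -0.114. In both gates the groups did not overlap. Of all genes 9.05% had both frail libraries below every control in the fibro-adipogenic gate, and 9.87% lay above every control over all barcodes. The share above every control in the endothelial gate itself is not given here. Uqcrc1 was called in neither gate. In edgeR its log2 change was 0.10 (SE 0.17, unadjusted p = 0.57) in the endothelial gate. In the fibro-adipogenic gate it was -0.13 (SE 0.16, unadjusted p = 0.44).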

How the results depend on the processing

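For frail against control, 0 subunits were lower in edgeR in each comparison. DESeq2 called 3 lower over all barcodes, 1 in the endothelial, 3 in the fibro-adipogenic, 1 in the mural and 2 in the macrophage gate. With every gene of at least 1 UMI kept, 2 were lower in the endothelial, 3 in the fibro-adipogenic, 1 in the macrophage and 2 in the satellite gate. With at least 2 UMIs of the gate gene 1 was lower in the mural gate, and in barcodes with no Ckm or Acta1 UMI 1 in the fibro-adipogenic gate. Leaving out single libraries gave 0 to 1 in the macrophage gate, the 1 call coming without control 1. The cause of these differences was not tested. The shares of all genes called with DESeq2, the other settings and left-out libraries are not given in this section.

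The replicate block pairs frail and control mice by number, although the numbers were not taken to pair them. With it 3 subunits were lower over all barcodes, with log2 changes of -4.94 for Cox6a2, -2.84 for Cox7a1 and -3.89 for Cox8b, and 1 each in the endothelial, fibro-adipogenic and mural gates. Cox8a, at 0.02 over all barcodes, was at -0.075 with the block and between -0.33 and 0.31 with single libraries left out. Other changes of sign with 1 library left out were Cox7a2 over all barcodes (-0.46 to 0.046), Ndufa8 in the endothelial gate (-0.048 to 0.99), Cox8b in the satellite gate (-2.37 to 0.075) and Cox7a1 in the myofibre gate (-0.12 to 0.038).

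Against the mean of the other 5 gates, the endothelial gate had 2 higher and 75 lower; against the 4 gates outside myofibre it had 12 and 32, and scaled by total UMIs alone 4 higher. The fibro-adipogenic gate had 0 higher with DESeq2 and 0 to 1 with single libraries left out. The mural gate had 8 higher and 38 lower, 23 lower with every gene kept, 15 and 14 with at least 2 UMIs of the gate gene, 74 and 2 against the 4 gates, 35 and 9 by total UMIs alone, and 5 to 9 higher and 23 to 40 lower with single libraries left out. The macrophage gate had 3 higher and 77 lower, 19 and 5 against the 4 gates, 5 higher by total UMIs alone and 2 to 4 higher with single libraries left out. The satellite gate had 2 higher and 70 lower, 5 higher with DESeq2, with RLE factors and by total UMIs alone, 1 with every gene kept, 15 and 33 against the 4 gates, and 1 to 2 higher with single libraries left out. The myofibre gate had 3 lower against barcodes with no Ckm or Acta1 UMI.

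Against the 4 gates in place of 5, the sign turned for 24 of 84 subunits in the endothelial, 3 in the fibro-adipogenic, 65 in the mural, 46 in the macrophage and 26 in the satellite gate, and 6, 2, 29, 17 and 5 of these were called both ways. Among the isoforms, the paralogs and the genes named by size the turned values were 0.21 for Cox6a2 and -1.63 for Cox6b2 (endothelial), -0.51 for Cox6b2 (fibro-adipogenic), 1.23 for Cox6a2, 0.34 for Cox8b and 0.037 for Ndufb4 (mural), 0.54 for Cox6a2, 0.70 for Cox7a1, 0.042 for Cox8b and 0.10 for Atp5g1 (macrophage) and 0.76 for Cox8b (satellite). Endothelial Cox6b2 was at -0.60 with DESeq2 and -0.059 with at least 2 UMIs of the gate gene, and Cox4i2 at 0.056 by total UMIs alone. Fibro-adipogenic Ndufa4l2, at -0.02, was at 0.10 with DESeq2, 0.021 with RLE, 0.047 with every gene kept, 0.82 with at least 2 UMIs, 0.16 without Ckm or Acta1 UMIs, 0.23 by total UMIs alone and -0.17 to 0.35 with single libraries left out. Macrophage Ndufa4l2 was at -0.36 with at least 2 UMIs, and satellite Cox8b at 0.48 without Ckm or Acta1 UMIs.

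Among the 5 gates, lower calls in the endothelial gate were 16 with every gene kept, with 7 to 18 higher and 21 to 30 lower when single libraries were left out. The macrophage gate had 29 higher with DESeq2, 10 higher and 3 lower with every gene kept, 3 lower with RLE, 12 higher and 8 lower by total UMIs alone, and 10 to 20 higher and 2 to 6 lower with single libraries left out. The satellite gate had 9 higher with every gene kept. Mural Ndufa4, at -0.04, was at 0.064 by total UMIs alone and -0.16 to 0.036 with single libraries left out, and mural Cox4i1 was at 0.14 and not called with every gene kept. Total UMIs alone moved the median of all genes by 0.11 in the mural and -0.11 in the satellite gate. With single libraries left out Ndufa4l2 ranged over -0.56 to 0.038 (fibro-adipogenic), Cox8b over -0.19 to 0.60 (mural) and -0.36 to 0.19 (macrophage), and macrophage Cox6b2 over -0.14 to 0.22 and was at -0.011 by total UMIs alone. Lower calls between fibre classes were 27 by total UMIs alone and 0 to 19 with single libraries left out. Mean isoform shares with the stricter gates were 99.6% for Cox6a2, 48.1% for Cox7a1, 38.1% for mural Cox4i2 and 83.2% for mural Ndufa4l2, and Cox7a1 was at 51.2% with no mitochondrial limit. Not run were the myofibre frail comparison without frail 2 or with the block, and the fibre comparison with Ckm plus Acta1 at 10% or more; frail 1 was in neither fit. The myofibre frail comparison rests on 1 frail library of 74 barcodes.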
